A study of Mus musculus with 8 samples.

Results

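The LPS response of macrophages that lack PTIP was measured in 4 of the 8 samples of the study. These were 2 cultures of PtipcKO bone marrow-derived macrophages collected after 6 h with LPS and 2 collected at 0 h, chosen by their labels alone. None of the 8 samples was kept for 6 h without LPS. A change due to LPS and one due to 6 h more of culture therefore cannot be told apart. For each gene the mean of the 0 h pair was subtracted from the mean of the LPS pair, among the 11543 of 55226 genes whose mean expression value over the 8 samples reached 3. The other 4 samples were PtipWT macrophages treated in the same way. They serve for comparison, and they also enter the filter on low values and the estimate of the spread behind every cKO test.

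RNA sequencing was carried out on marrow cells from C57BL/6 mice that had been grown for 7 days with 10% FBS and 10 ng/ml of M-CSF, the growth factor that drives macrophage differentiation. The LPS dose was 100 ng/ml. "cKO" denotes a conditional knockout of Ptip, the gene now named Paxip1. The sources used here do not say how the deletion was made, in which cells it was driven or which exons it removed, nor do they give the age and number of the mice. The labels number 2 samples per group but do not say whether a number marks a mouse, so a p-value measures only how far these samples spread, which may be technical.

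LPS is a component of the outer membrane of Gram-negative bacteria that macrophages detect through Toll-like receptor 4 with its co-receptor CD14. The adaptor MyD88 leads from the receptor to NF-kB and to the first wave of inflammatory cytokines, and the adaptor TRIF leads to IRF3, type I interferon and then to interferon-stimulated genes. PTIP is a subunit of the complexes in which KMT2C or KMT2D places methyl groups on lysine 4 of histone H3, and it also acts in DNA repair.

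The promoters of 6 genes that rose are shown here. They were chosen because each holds either or both of the 2 motifs through which these pathways are known to reach DNA. The sequences are the 250 bases before the transcription start from RefSeq on GRCm38.p6, written 5′ to 3′ on the gene's own strand, and capitals mark matches to the ISRE (the interferon-stimulated response element, searched as GAAA, any 2 bases and GAAA) or to the kappa-B site, on either strand.
Cxcl10, chr5:92348890-92349139, minus strand: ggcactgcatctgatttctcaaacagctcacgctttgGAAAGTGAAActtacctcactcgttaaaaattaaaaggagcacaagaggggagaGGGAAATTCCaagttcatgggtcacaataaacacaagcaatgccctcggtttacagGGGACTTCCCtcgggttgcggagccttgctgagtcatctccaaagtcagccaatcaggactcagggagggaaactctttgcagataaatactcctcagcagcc
Gbp5, chr3:142496684-142496933, plus strand: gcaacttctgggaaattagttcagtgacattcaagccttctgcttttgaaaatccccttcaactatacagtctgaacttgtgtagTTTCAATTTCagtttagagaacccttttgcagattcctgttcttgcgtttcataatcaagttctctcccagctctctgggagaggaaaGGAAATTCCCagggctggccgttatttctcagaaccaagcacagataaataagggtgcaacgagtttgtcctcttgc
Irgm1, chr11:48871421-48871670, minus strand: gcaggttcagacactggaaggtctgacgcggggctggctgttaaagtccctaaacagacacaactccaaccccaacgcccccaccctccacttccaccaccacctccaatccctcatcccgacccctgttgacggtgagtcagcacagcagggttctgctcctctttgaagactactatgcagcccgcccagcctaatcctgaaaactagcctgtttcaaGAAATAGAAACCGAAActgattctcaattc
Ifi205, chr1:174031756-174032005, minus strand: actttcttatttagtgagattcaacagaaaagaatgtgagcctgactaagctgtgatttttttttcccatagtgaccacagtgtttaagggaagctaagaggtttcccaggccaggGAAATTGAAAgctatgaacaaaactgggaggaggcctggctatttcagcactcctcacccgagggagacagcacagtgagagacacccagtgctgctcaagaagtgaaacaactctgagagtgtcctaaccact
Il6, chr5:30012864-30013113, plus strand: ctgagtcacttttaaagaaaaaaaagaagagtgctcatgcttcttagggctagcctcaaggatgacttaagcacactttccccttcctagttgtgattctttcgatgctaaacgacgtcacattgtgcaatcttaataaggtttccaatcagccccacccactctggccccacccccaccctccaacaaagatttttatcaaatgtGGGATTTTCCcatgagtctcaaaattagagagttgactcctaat
Serpina3g, chr12:104235897-104236146, plus strand: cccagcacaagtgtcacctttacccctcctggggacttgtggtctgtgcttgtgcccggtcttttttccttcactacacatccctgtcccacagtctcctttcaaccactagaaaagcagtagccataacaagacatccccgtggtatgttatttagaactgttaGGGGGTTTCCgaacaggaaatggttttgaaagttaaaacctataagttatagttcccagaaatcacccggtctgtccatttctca

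In the Cxcl10 window the ISRE match lay 213 bases before the start and the kappa-B matches 159 and 103 bases before it. Gbp5 had an ISRE match 165 bases and a kappa-B match 77 bases before the start, and Irgm1 had overlapping ISRE matches 30 and 24 bases before it. The single match of Ifi205 in the stretch shown was an ISRE at 134 bases. Il6 and Serpina3g each held a kappa-B match, at 44 and 85 bases. Other genes that rose held neither motif in their 250 bases, among them Tnf, Il1b, Il12b, Lta, Hdc, Ccl12 and Serpina3f. Among genes that fell, Dhrs3 had an ISRE match and Il16 a kappa-B match in some of their windows. A match is a description of the letters and does not show that a factor binds.

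Over windows from 250 bases before to 50 after a start, 3.99% of 27025 genes with a RefSeq promoter held an ISRE match and 5.14% a kappa-B match. Promoters were found for 8600 of the 11543 tested genes, of which 4.24% held an ISRE match and 6.29% a kappa-B match. Among 1722 genes that rose in cKO the shares were 8.65% and 7.9%, and among the 95 that rose by at least 3 log2 units they were 26.3% and 15.8%. Among 1603 genes that fell they were 2.93% and 5.49%. All 10 GBP and IRG GTPase genes with a promoter in the table held an ISRE match, as did 25 of 48 antiviral interferon-stimulated genes. Kappa-B matches were in 5 of 16 chemokine genes and 7 of 28 cytokine genes. The AP-1 motif TGANTCA was in 6.41% of the tested genes and in 16.8% of those that rose by at least 3. Of the 12 largest rises 9 matched the promoter table, and Cd40, Il27 and Nos2 did not. Of the 9, an ISRE match was in 4 and a kappa-B match in 3. Of the 12 largest falls, an ISRE match was in 1 and a kappa-B match in 0.

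Values are rlog, a log2 expression scale deposited by the authors on which values of thinly covered genes are shrunk toward the gene's average, so that a difference of 1 is a 2-fold change in well-measured genes and a difference understates the change of low ones. Depth is unknown because no counts were used. The 2 replicates of a group differed by a median of 0.19 at 0 h and 0.16 after LPS in cKO. Bulk RNA was measured, so fewer cells of a type and less RNA per cell cannot be told apart. All 9 macrophage markers were above the filter on low values, and of these Lyz2, Cd68 and Adgre1 had no difference past the threshold (adjusted p = 0.792, 0.989 and 0.569 by limma). The T cell markers Cd3e, Cd3d and Cd8a and the neutrophil marker Ly6g were below 0 on the rlog scale in every sample. The T cell marker Cd4 and the neutrophil markers Ngp, Cxcr2, Ltf and S100a9 were above 0 in every sample. Their means did not reach the filter on low values, so they were not tested. S100a8, also a neutrophil marker, was at 7.76 and 7.84 at 0 h and at 8.23 and 8.35 after LPS in cKO. Its difference of 0.49 did not pass (adjusted p = 0.0927 by limma). Markers of other cell types that rose were Lck of T cells (2.99), Kdr of endothelium (3.42) and Camp of neutrophils (1.84), and Zbtb46 (0.81) and Xcr1 (0.90) of dendritic cells, while Cd79b of B cells differed by -1.29; the endothelial genes Emcn and Tek and the neutrophil gene Retnlg were listed at 0. Clec9a of dendritic cells went the other way from Zbtb46 and Xcr1, with a difference of -0.88 that did not pass (adjusted p = 0.0909 by limma). What part other cells had in the results was not tested.

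Paxip1 itself was listed at 2.54 and 2.48 in the cKO samples at 0 h and at 2.54 and 2.63 after LPS. In WT it was 4.50 and 4.50 at 0 h and 3.82 and 4.08 after LPS. Every cKO library lay below every WT library, and within cKO the groups met at 2.54 after rounding. The cKO difference of Paxip1 was 0.07 (SE 0.18, adjusted p = 0.784). All its cKO values were below the filter value of 3, so Paxip1 was tested only because of its WT values. Its GRCm38 position is chromosome 5, 27740080 to 27791691, minus strand.

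In cKO macrophages 2260 genes rose and 2015 fell after LPS, which is 19.6% and 17.5% of the genes tested and 37% together (limma, Benjamini-Hochberg adjusted p under 0.05). The rises were larger than the falls. At least 1 log2 unit separated 1195 rises and 778 falls, at least 2 units 381 and 70, at least 3 units 132 and 8, and at least 5 units 15 and 0. In all 4275 called genes the LPS pair and the 0 h pair did not overlap, against 72.5% of the tested genes as a whole. The median over all tested genes was -0.02. Fewer genes passed when a cKO library taken after LPS was left out, with 2845 without replicate 1 and 2684 without replicate 2. With quantile normalization 44.6% of the calls were rises in place of 52.9%. At the same threshold the authors' deposited table had higher values after LPS for 1892 genes and lower values for 1349. Of these, 1762 and 1251 were called in the same direction here and 0 in the opposite one. Both comparisons used the same samples. The rest of the 2260 rises and 2015 falls called here were not called there. Among them were the falls of Irak1, Ccl25 and Mapk14 (adjusted p = 0.304, 0.119 and 0.0866 in the authors' test).

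**Figure D1:**
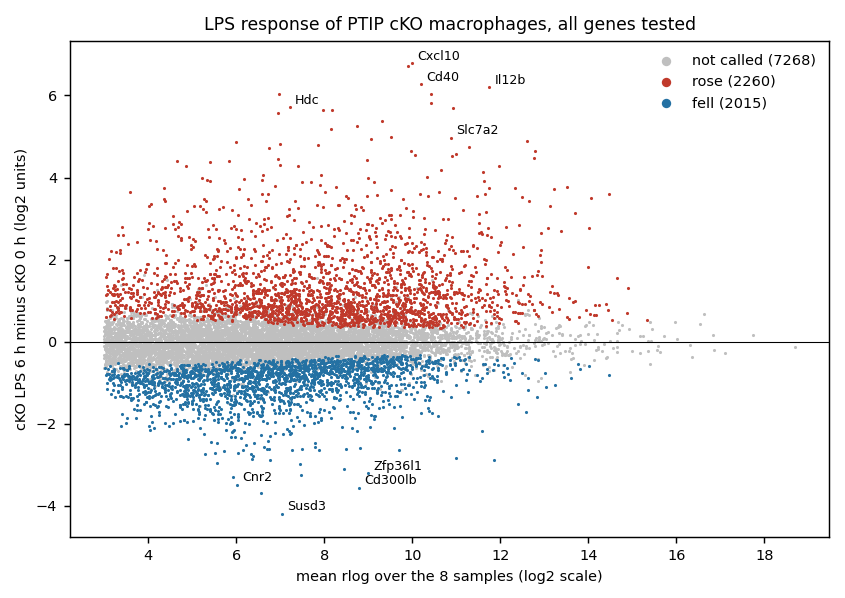
Difference between cKO macrophages after 6 h of LPS and at 0 h (vertical axis, log2 units) against the mean rlog over the 8 samples (horizontal axis) for 11543 genes. Red points are the 2260 genes that rose, blue points the 2015 that fell and grey points the 7268 not called. The largest rise reaches 6.79 and the largest fall -4.2.

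The 12 largest rises were genes of secreted signals, interferon-induced proteins and enzymes. Cxcl10, a chemokine that attracts activated T cells (chromosome 5, 92346638 to 92348889, minus strand), was at 5.90 and 6.47 at 0 h and at 13.15 and 12.79 after LPS. The difference was 6.79 (SE 0.59, adjusted p = 8.69e-05). Il27, a subunit of the cytokine interleukin 27, was at 5.81 and 6.22 before and 12.77 and 12.70 after LPS. It rose by 6.72 (SE 0.46, adjusted p = 3.09e-05). In both genes the 2 LPS samples lay close together. That the LPS pair did not overlap the 0 h pair was a condition for all 12.

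Cd40, the receptor through which T cells license macrophages, went from 6.49 and 7.14 to 13.12 and 13.06 and rose by 6.27 (SE 0.34, adjusted p = 1.74e-05). Il12b, the subunit shared by interleukins 12 and 23, went from 7.23 and 8.38 to 13.57 and 14.45 and rose by 6.20 (SE 0.46). Replicate 2 of Il12b was the higher one at both times. Hdc, the enzyme that makes histamine, was at 3.77 and 4.0 at 0 h and at 9.60 in both LPS samples, a rise of 5.71 (SE 0.33). Nos2, the inducible nitric oxide synthase, went from 4.91 and 4.29 to 10.68 and 9.78 and rose by 5.64 (SE 0.55), with replicate 1 the higher at both times. Lta, which encodes lymphotoxin alpha, went from 3.96 and 3.79 to 9.66 and 9.24 and rose by 5.58 (SE 0.22, adjusted p = 4.65e-06).

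The other 5 were Serpina3f (6.03, SE 0.28), Ifi205 (6.03, SE 0.55), Serpina3g (5.81, SE 0.29), Ifit1bl1 (5.71, SE 0.43) and Gbp5 (5.65, SE 0.19). They belong to families with closely similar copies, among which reads can be split in ways the sources used here do not describe. Ifit1bl1 was at 7.04 and 8.67 at 0 h and at 13.40 and 13.72 after LPS, with replicate 2 the higher at both times. All 12 kept their call under every alternative run, including each library left out in turn.

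**Figure D2:**
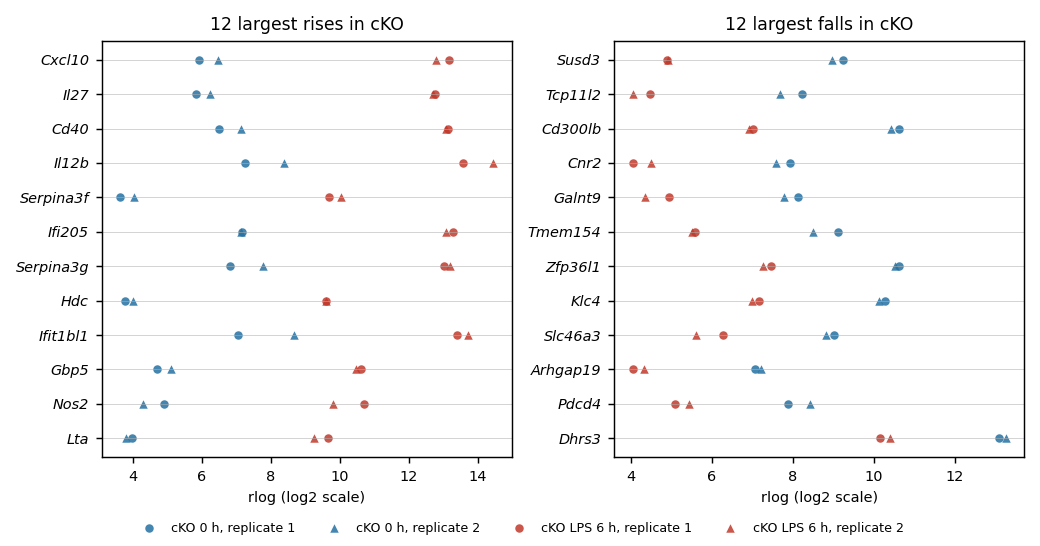
Expression (rlog, log2 scale) of the 12 genes with the largest rises (left) and the 12 with the largest falls (right) in each of the 4 cKO samples. Blue points are 0 h, red points LPS 6 h, circles replicate 1 and triangles replicate 2. Genes were chosen only if both LPS samples lay on one side of both 0 h samples.

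The largest falls were smaller in size and came from unlike families. Susd3, which encodes a membrane protein with a sushi domain, was at 9.24 and 8.97 at 0 h and at 4.89 and 4.92 after LPS. It fell by 4.2 on the log2 scale (SE 0.30, adjusted p = 3.86e-05). The falls too were taken only from genes whose pairs did not overlap. Tcp11l2 went from 8.23 and 7.69 to 4.47 and 4.06, a difference of -3.69 (SE 0.25). Cd300lb, an activating receptor of the CD300 family, went from 10.62 and 10.43 to 7.02 and 6.91, a difference of -3.57 (SE 0.15, adjusted p = 5.71e-06). Cnr2, the cannabinoid receptor of immune cells, went from 7.92 and 7.59 to 4.05 and 4.49, a difference of -3.49 (SE 0.22).

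Zfp36l1, an RNA-binding protein that promotes decay of AU-rich messages, went from 10.62 and 10.52 to 7.45 and 7.27, a difference of -3.21 (SE 0.36). Dhrs3, which reduces retinal to retinol, was the most highly listed of these genes, at 13.10 and 13.25 before and 10.15 and 10.41 after LPS, a difference of -2.90 (SE 0.18). Pdcd4, an inhibitor of translation initiation, differed by -2.90 (SE 0.29). The remaining differences were -3.31 for Galnt9, a glycosyltransferase, -3.24 for Tmem154, -3.11 for Klc4, a kinesin light chain, -2.98 for the lysosomal transporter Slc46a3 and -2.96 for Arhgap19, a GTPase-activating protein. These 12 also kept their call under every alternative run.

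Gene groups were read against the 19.6% and 17.5% of all tested genes. The plot of the shares of each gene list shows the antiviral, GTPase, Schlafen, NF-kB and MHC class I lists at the top and the cell cycle and prostanoid lists at the bottom.

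**Figure D3:**
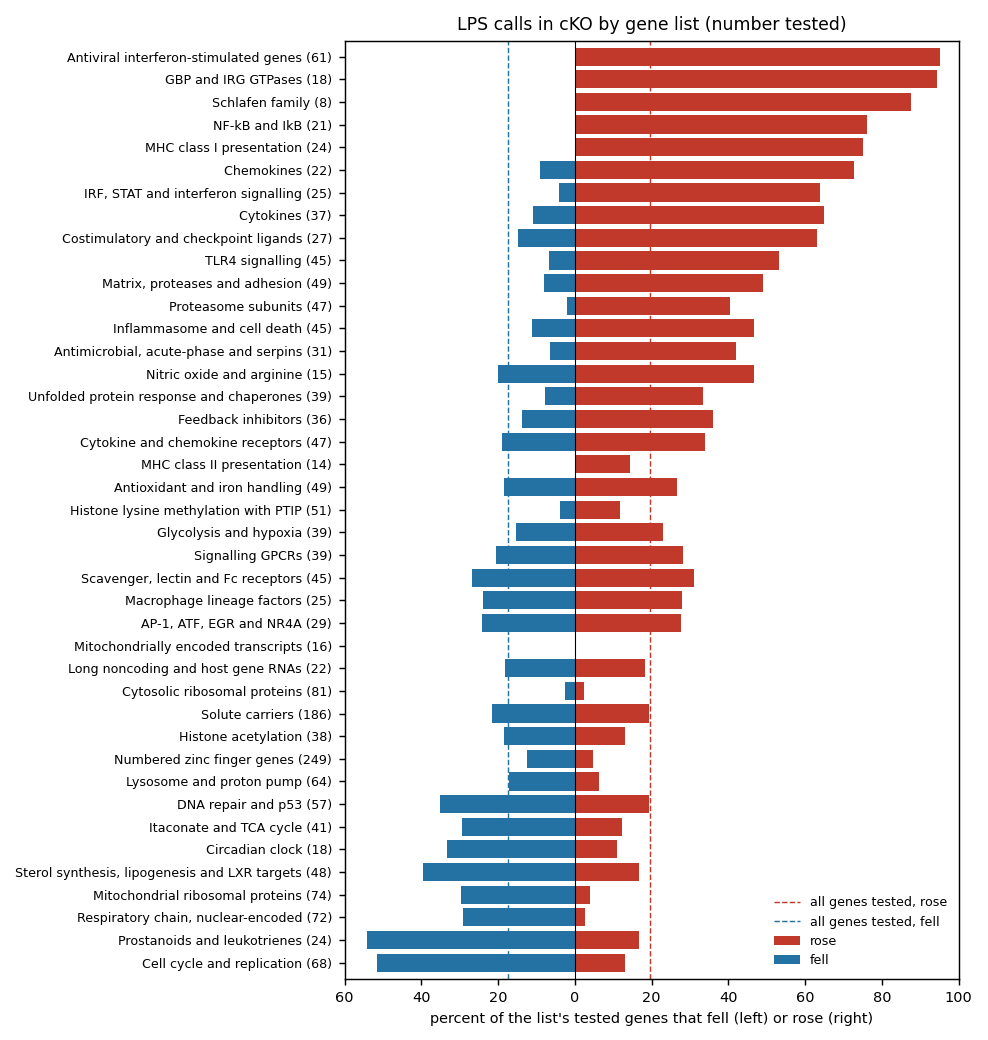
Percent of the tested genes of each of 41 gene lists that rose (red, to the right) or fell (blue, to the left) after LPS in cKO, with the number tested in parentheses. Dashed lines mark the shares over all tested genes, 19.6% and 17.5%. The antiviral list has 95.1% rises and 0 falls, and the cell cycle list 51.5% falls and 13.2% rises.

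Of 45 tested genes for LPS recognition and its adaptors and kinases, 24 rose and 3 fell, with a median of 0.62. The receptor gene Tlr4 was at 8.07 and 7.73 before and at 7.75 and 7.92 after LPS, so its groups overlapped, and its difference of -0.06 did not pass (adjusted p = 0.868). The co-receptor gene Cd14 rose by 1.55 (SE 0.27) and the adaptor gene Myd88 by 1.63 (SE 0.14). Traf1, a signalling scaffold, rose by 3.47 (SE 0.31), and Tlr3, the receptor for double-stranded RNA, by 3.34 (SE 0.35). The ubiquitin ligase gene Peli1 was at 6.92 and 9.17 before and at 10.78 and 11.72 after LPS. Its rise of 3.21 (SE 0.63) was 2.09 without cKO 0 h replicate 1. The 3 falls were Mapk14 (-0.61), Tlr13 (-0.55) and Irak1 (-0.47). Tlr13 differed by -0.88 with quantile normalization. Irak1 (adjusted p = 0.0482) did not pass when any library other than cKO 0 h replicate 2 was left out, nor with no filter on low values, with samples centred on their medians or with cKO fitted alone. Of the 3 calls 1 was left without cKO 0 h replicate 1 and 0 without cKO LPS replicate 1.

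NF-kB subunits, their inhibitors and the enzymes that build or trim their ubiquitin chains rose in 16 of 21 genes and fell in 0, with a median of 1.22. Nfkbia, the inhibitor that NF-kB itself induces, was at 10.64 and 10.69 before and 13.14 and 13.07 after LPS, a rise of 2.44 (SE 0.19). Nfkbib rose by 2.48 (SE 0.12) and the deubiquitinase gene Tnfaip3 by 2.71 (SE 0.16). Rnf31, the catalytic subunit of the linear ubiquitin ligase, had the largest rise of the list, 2.88 (SE 0.16). Among the DNA-binding subunits Relb rose by 1.57 (SE 0.12) and Rela by 0.87 (SE 0.15).

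Of 25 IRF, STAT and interferon signalling genes 16 rose and 1 fell. Batf2, an interferon-induced partner of IRF1, rose by 3.82 (SE 0.21), and Irf1 by 3.08 (SE 0.19). Usp18, which removes ISG15 and restrains the interferon receptor, rose by 2.77 (SE 0.22). The fall was in Ifngr1, the ligand-binding chain of the interferon gamma receptor, which went from 11.16 and 11.27 to 9.97 and 10.07, a difference of -1.20 (SE 0.20).

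Of 37 tested cytokine genes 24 rose and 4 fell, with a median of 2.55. Tnf was at 8.75 and 8.50 before and 13.31 and 13.44 after LPS, a rise of 4.75 (SE 0.18, adjusted p = 4.65e-06). Il6 was at 4.67 and 5.06 before and 9.61 and 9.71 after, a rise of 4.80 (SE 0.33). Il1b was at 8.57 and 8.55 before and 11.47 and 11.61 after, a rise of 2.98 (SE 0.26). In all 3 both LPS samples lay above both 0 h samples. Pdgfa, a growth factor for mesenchymal cells, differed by -1.53 (SE 0.22), and Tnfsf12, which encodes TWEAK, by -1.59 (SE 0.20). Il16 also fell, by 1.64 on the log2 scale, but did not pass without cKO 0 h replicate 1 or cKO LPS replicate 1. The 4 falls were 2 without cKO 0 h replicate 1.

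Of 22 chemokine genes 16 rose and 2 fell, with a median of 2.65. Ccl5, which attracts T cells and monocytes, went from 10.53 and 10.07 to 14.76 and 14.77, a rise of 4.46 (SE 0.61). Ccl4 rose by 4.29 (SE 0.34) and Ccl12, a ligand of CCR2, by 4.30 (SE 0.54). Cxcl1, which attracts neutrophils, went from 6.16 and 6.70 to 9.61 and 9.90, a rise of 3.32 (SE 0.21). The falls were Ccl6 (-0.82, and -1.29 with quantile normalization) and Ccl25 (-0.78). Without cKO LPS replicate 2 neither passed, and 1 of the 2 was left without cKO LPS replicate 1 or without cKO 0 h replicate 2.

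Of their 47 tested receptor genes 16 rose (34%) and 9 fell (19.1%), against 19.6% and 17.5% of all tested genes. Il15ra, which presents interleukin 15 to neighbouring cells, rose by 2.89 (SE 0.25), Il1rap by 1.78 (SE 0.18), the chemerin-binding receptor gene Ccrl2 by 1.72 (SE 0.14) and Il13ra1 by 1.5 (SE 0.19). Ccr7, which guides cells to lymph nodes, rose by 1.42 (SE 0.31). Il6ra went from 9.82 and 9.91 to 7.59 and 7.95, a difference of -2.1 (SE 0.15), and Cxcr3, the receptor of CXCL10, from 4.94 and 4.80 to 2.80 and 2.62, a difference of -2.16 (SE 0.22). The fractalkine receptor gene Cx3cr1 differed by -2.17 (SE 0.48) and did not pass without cKO LPS replicate 2. Csf1r, the M-CSF receptor, differed by 0.09 (adjusted p = 0.721), and by -0.51 with quantile normalization (adjusted p = 0.0338). The 16 rises were 10 without cKO 0 h replicate 1 and 9 without either cKO LPS library.

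Interferon-stimulated genes made up the 3 lists with the highest share of rises. Of 61 antiviral genes 58 rose and 0 fell, with a median of 2.1. Of 18 GTPases of the GBP and IRG families 17 rose and 0 fell, with a median of 2.98, and of 8 Schlafen genes 7 rose and 0 fell, with a median of 1.52. Cmpk2, a mitochondrial nucleotide kinase, went from 9.44 and 10.17 to 14.82 and 14.60, a rise of 4.90 (SE 0.32). Rsad2, which encodes viperin, went from 9.77 and 10.67 to 14.99 and 14.75, a rise of 4.65 (SE 0.33). Isg15, a ubiquitin-like modifier, rose by 3.52 (SE 0.38), Mx1, an antiviral dynamin-like GTPase, by 4.01 (SE 0.36), and Ifit1, which binds uncapped viral RNA, by 3.76 (SE 0.35).

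Among the GBP and IRG GTPases, Iigp1 rose by 5.38 (SE 0.59), Gbp4 by 4.99 (SE 0.47) and Tgtp1 by 4.82 (SE 0.43). Gbp2 rose by 3.71 (SE 0.32) and Irgm1 by 2.18 (SE 0.20). Slfn4 rose by 2.97 (SE 0.35), Slfn8 by 2.23 (SE 0.20) and Slfn9 by 2.18 (SE 0.33). Slfn2 rose by 1.06 (SE 0.15), and by 0.54 with quantile normalization. These families have near-identical copies, so single members are uncertain.

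The 2 cKO samples at 0 h did not hold these genes at 1 level. Replicate 2 was above replicate 1 in 59 of 61 antiviral genes, by a median of 0.63, in 18 of 18 GBP and IRG genes, by 0.74, and in 8 of 8 Schlafen genes, by 0.45. Over all tested genes it was above in 5788 of 11543. After LPS replicate 2 was above replicate 1 in 35 of 61 antiviral genes, with a median difference of 0.01. Isg15 was at 9.96 and 11.43 at 0 h and at 14.13 and 14.30 after LPS, and Iigp1 at 5.30 and 6.86 and then at 11.54 and 11.37. At 0 h in WT, replicate 2 was above replicate 1 in 16 of 61 antiviral genes. The median response, LPS minus 0 h within a replicate number, was 2.31 in replicate 1 and 1.87 in replicate 2 for the antiviral genes, 3.20 and 2.66 for the GBP and IRG genes, and 1.95 and 1.09 for the Schlafen genes. The part of the 0 h spread in the size of the cKO response was not tested.

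**Figure D4:**
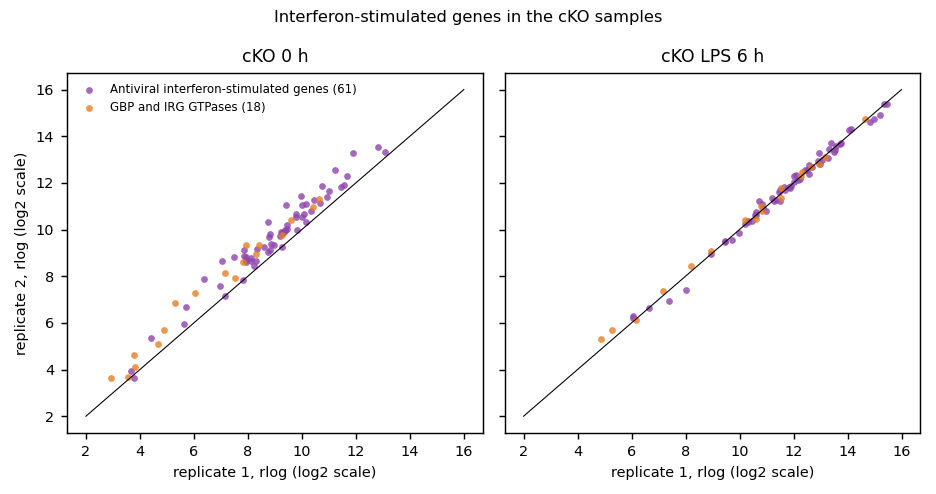
Rlog (log2 scale) of 61 antiviral interferon-stimulated genes (purple) and 18 GBP and IRG genes (orange) in replicate 1 (horizontal axis) and replicate 2 (vertical axis) of cKO at 0 h (left) and after LPS (right). The line marks equal values. At 0 h 59 of 61 and 18 of 18 genes lie above the line, and after LPS the points lie along it.

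Antigen presentation split by class. Of 24 genes for MHC class I presentation 18 rose and 0 fell, with a median of 1.23. Tap1, a subunit of the peptide transporter, went from 9.99 and 10.23 to 12.84 and 12.71, a rise of 2.66 (SE 0.14). Nlrc5, the transactivator of class I genes, rose by 2.57 (SE 0.13), and the nonclassical genes H2-Q6 and H2-Q7, which resemble each other closely, by 3.07 (SE 0.33) and 2.52 (SE 0.33). B2m, the light chain, differed by 0.13 (adjusted p = 0.691). With quantile normalization 2 of the 24 fell, and 1 fell without either WT LPS library or with cKO fitted alone. Of 14 class II genes 2 rose and 0 fell, with a median of 0.16. H2-Ab1 differed by 0.30 (adjusted p = 0.452) and Cd74, the invariant chain, by 0.06 (adjusted p = 0.871). The 2 rises were Ciita (0.83) and H2-Oa (1.02). Neither passed without cKO 0 h replicate 2 or cKO LPS replicate 1, and 1 was left without cKO 0 h replicate 1. A class II gene fell, 1 of the 14, without either WT LPS library, without cKO LPS replicate 1 and with quantile normalization.

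The proteasome, which cuts the peptides for class I, had 19 of 47 subunit genes risen and 1 fallen. The fall was in the assembly chaperone gene Psmd5 (-0.68, SE 0.11). The inducible subunit gene Psmb9 rose by 1.44 (SE 0.13) and the activator genes Psme1 and Psme2 by 1.31 (SE 0.14) and 1.57 (SE 0.20). Psmb8 and Psmb10, the other inducible subunits, rose by 1.30 and 1.28, and by 0.80 and 0.85 with quantile normalization. The 19 rises were 11 without cKO LPS replicate 2, and the single fall became 6 with quantile normalization and 2 without either WT LPS library.

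Of 27 costimulatory and checkpoint genes 17 rose and 4 fell, with a median of 1.24. Cd86 rose by 2.99 (SE 0.28), Tnfsf9, the ligand of 4-1BB, by 3.07 (SE 0.35), Slamf8 by 2.77 (SE 0.25) and Cd274, which encodes PD-L1, by 2.33 (SE 0.15). The checkpoint receptor gene Havcr2, which encodes TIM-3, went from 7.83 and 7.49 to 5.71 and 5.61, a difference of -2.0 (SE 0.23). Vsir, which encodes VISTA, differed by -1.81 (SE 0.16) and Cd244a by -1.39 (SE 0.20).

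Genes that restrain the response rose in 13 of 36 and fell in 5. Socs1 and Socs3, which block cytokine receptor signalling, rose by 2.80 (SE 0.21) and 2.41 (SE 0.44). The kinase phosphatase gene Dusp16 rose by 2.71 (SE 0.31) and Spred1, an inhibitor of Ras signalling, by 2.52 (SE 0.20). Zfp36, a relative of Zfp36l1 that destabilises Tnf messages, differed by 0.43 (adjusted p = 0.439). Dusp3 fell by 2.18 on the log2 scale (SE 0.30). The 5 falls were 3 without cKO 0 h replicate 1, 2 without cKO LPS replicate 2 and 8 with quantile normalization.

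Among transcription factors outside NF-kB and the interferon pathway, rises and falls were nearly equal. Of 29 AP-1, ATF, EGR and NR4A genes 8 rose (27.6%) and 7 fell (24.1%), against 19.6% and 17.5% of all tested genes. Batf rose by 1.69 (SE 0.16) and Mafk by 1.16 (SE 0.16). Egr2 went from 10.26 and 9.40 to 8.38 and 7.66, a difference of -1.81 (SE 0.35), and Batf3, a factor of dendritic cell development, differed by -1.41 (SE 0.24). Junb differed by 0.18 (adjusted p = 0.53). The 8 rises were 4 without either cKO LPS library, and the 7 falls were 2 to 4 when any 1 cKO library was left out.

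Of 25 macrophage lineage factors 7 rose (28%) and 6 fell (24%), against 19.6% and 17.5% of all tested genes. Nr1h3, which encodes the oxysterol receptor LXR alpha, rose by 2.19 (SE 0.25), and Prdm1 by 1.19 (SE 0.22). Pparg, a regulator of lipid handling, went from 5.42 and 5.68 to 3.86 and 3.73, a difference of -1.76 (SE 0.30). Fli1 differed by -1.72 (SE 0.25). Spi1, which encodes PU.1, was at 9.17 and 11.94 at 0 h and at 10.80 and 12.50 after LPS. Replicate 2 was the higher at both times, the LPS sample was the higher at both numbers, and the difference of 1.10 did not pass (SE 0.80, adjusted p = 0.321). Without cKO 0 h replicate 2 the difference of Spi1 was 2.48 and passed (adjusted p = 0.0143 by limma), and without cKO 0 h replicate 1 it was -0.28 (adjusted p = 0.748).

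Among metabolic genes rises and falls stood within the same lists. Acod1, which makes itaconate, went from 11.19 and 11.18 to 14.67 and 14.34, a rise of 3.32 (SE 0.21). Idh1 went from 12.66 and 12.38 to 9.77 and 9.62, a difference of -2.83 (SE 0.26). Pdk2, a kinase that inhibits pyruvate dehydrogenase, differed by -2.52 (SE 0.25) while its relative Pdk3 rose by 1.38 (SE 0.21). Over the list of 41 itaconate and TCA cycle genes 5 rose and 12 fell, with a median of -0.21. The rises were 2 or 3 when any 1 cKO library was left out, and 3 with quantile normalization, and the falls were 22 with quantile normalization. Of 15 nitric oxide and arginine genes 7 rose, among them the arginine transporter gene Slc7a2 (4.97, SE 0.29). Gch1, an enzyme of tetrahydrobiopterin synthesis, rose by 2.62, and by 1.60 without cKO 0 h replicate 1. It was not called in the authors' test (adjusted p = 0.0772). Arg1, which competes with Nos2 for arginine, was at 3.61 and 3.84 before and 3.81 and 4.10 after LPS, with overlapping groups. The 7 rises were 4 without cKO 0 h replicate 2 and 3 without cKO LPS replicate 1. The 3 falls, led by Pts (-0.81) of tetrahydrobiopterin synthesis, were 1 without cKO LPS replicate 2.

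Of 39 glycolysis and hypoxia genes 9 rose (23.1%) and 6 fell (15.4%), near the 19.6% and 17.5% of all tested genes. The hexose transporter gene Slc2a6 rose by 2.32 (SE 0.14), the phosphofructokinase gene Pfkp by 1.69 (SE 0.16), Hk3 by 1.56 (SE 0.25) and Hif1a by 1.06 (SE 0.14). Known targets of HIF went both ways. Ankrd37, Bnip3l and Egln3 differed by -1.65 (SE 0.21), -1.39 (SE 0.20) and -1.39 (SE 0.20), while P4ha1 rose by 1.41 and Slc2a1 by 0.77. With quantile normalization the rise of Slc2a1 was 0.49 and did not pass. The falls were 14 with quantile normalization.

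Nuclear genes of the respiratory chain fell in 21 of 72 and rose in 2, with a median of -0.24. The falls were small, with Cox7a2l at -0.75 (SE 0.15), Ndufb11 at -0.69 (SE 0.13) and Ndufa6 at -0.62 (SE 0.12), the 3 largest. Cycs, which encodes cytochrome c, rose by 1.60 (SE 0.14). The 21 falls were 45 with quantile normalization, 5 without cKO 0 h replicate 2, 7 without cKO LPS replicate 1 and 4 without cKO LPS replicate 2. The other rise, Uqcrfs1 (0.35, adjusted p = 0.0421), did not pass when any cKO library or any WT 0 h library was left out, nor with no filter on low values or no variance trend. With quantile normalization its difference turned to -0.0045. Mitochondrial ribosomal proteins fell in 22 of 74 and rose in 3, with Mrpl42 (-1.34, SE 0.18) and Mrpl41 (-1.23, SE 0.13) in the lead. These falls were 9 to 14 when any 1 cKO library was left out, and the 3 rises were 6 without either WT LPS library and 1 without cKO 0 h replicate 1 or cKO LPS replicate 2. Of 81 cytosolic ribosomal proteins 2 rose, among them Rps24 (0.68, SE 0.13), and 2 fell, Rpl3l (-0.59) and Rps27l (-0.38). Of these falls 0 were left when any 1 cKO library was left out and 1 without either WT LPS library, and 14 genes fell with quantile normalization.

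Of 16 transcripts encoded by the mitochondrial genome 0 were called in cKO by limma. A single transcript, 1 of the 16, rose when either WT 0 h library or WT LPS replicate 2 was left out and when cKO was fitted alone. Their differences ran from -0.22 to 0.76 with a median of 0.08. In WT 12 of 16 rose, with a median of 0.81. For mt-Nd1, a complex I subunit, the cKO samples were at 12.80 and 12.77 before and 12.95 and 12.76 after LPS, and the WT samples at 12.20 and 12.92 before and 13.29 and 13.28 after. For mt-Co1, a complex IV subunit, the cKO samples were at 15.09 and 15.45 before and 15.58 and 15.57 after, and the WT samples at 14.78 and 15.31 before and 15.87 and 15.94 after. The difference between the responses of cKO and WT was -0.66 (SE 0.31) for mt-Nd1 and -0.56 (SE 0.33) for mt-Co1. Of the 16 transcripts 6 had an unadjusted p under 0.05 for that difference, against 6.51% of all tested genes, and 0 passed after adjustment. In WT at 0 h replicate 2 was above replicate 1 in 16 of 16, by a median of 0.68. In cKO at 0 h it was above in 12 of 16, by 0.18. At 0 h in WT the 16 thus shifted together, so the 6 of 16 are not independent tests. The part of the 0 h spread in the difference of responses was not tested.

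**Figure D5:**
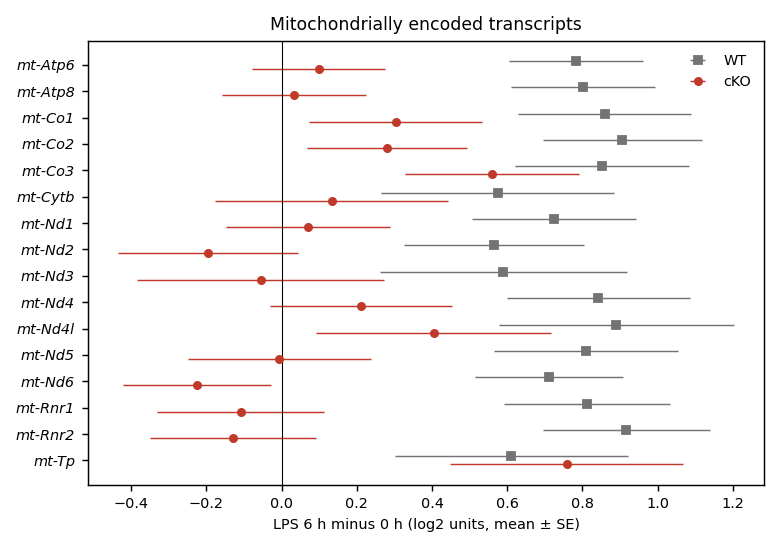
LPS 6 h minus 0 h (log2 units, horizontal axis) for 16 mitochondrially encoded transcripts in WT (grey squares) and cKO (red circles), with bars of 1 standard error from the limma fit. The WT values have a median of 0.81 and the cKO values a median of 0.08.

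Of 48 genes of sterol synthesis, lipogenesis and LXR targets 19 fell and 8 rose, with a median of -0.43. Scd2, a fatty acid desaturase, differed by -2.02 (SE 0.21), and Dhcr7 and Acat2 of sterol synthesis by -1.85 (SE 0.22) and -1.78 (SE 0.12). Ch25h, which makes 25-hydroxycholesterol, went from 5.08 and 4.87 to 10.56 and 9.75, a rise of 5.18 (SE 0.51). Mylip, an LXR target that degrades the LDL receptor, rose by 1.26 (SE 0.17). The 19 falls were 12 without cKO LPS replicate 1. The 8 rises were 4 without either cKO LPS library or without cKO 0 h replicate 2, and 5 with quantile normalization.

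Of 24 prostanoid and leukotriene genes 13 fell and 4 rose, with a median of -0.87. Ptgs2, the inducible cyclooxygenase, went from 6.72 and 6.53 to 11.04 and 11.30, a rise of 4.55 (SE 0.43), and Ptgs1, the constitutive form, from 7.23 and 7.37 to 5.90 and 6.44, a difference of -1.13 (SE 0.21). Pla2g4a, which releases arachidonic acid, rose by 1.01 (SE 0.17). The prostaglandin-degrading enzyme gene Hpgd differed by -2.05 (SE 0.29) and the prostaglandin E2 receptor gene Ptger2 by -1.95 (SE 0.20).

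Of 68 cell cycle and replication genes 35 fell and 9 rose, with a median of -0.72. E2f2, a transcription factor of S phase genes, went from 7.31 and 7.19 to 4.42 and 4.74, a difference of -2.67 (SE 0.18). Rrm2, a subunit of ribonucleotide reductase, differed by -1.94 (SE 0.40), Cenpa, the centromeric histone, by -1.55 (SE 0.26) and the replication helicase gene Mcm2 by -1.16 (SE 0.20). Against these, Ccnd2, a cyclin of G1, went from 5.88 and 6.59 to 11.26 and 11.09, a rise of 4.94 (SE 0.55). Tpx2, a spindle protein, rose by 2.04 (SE 0.16), Plk2 by 1.93 (SE 0.20) and Mki67, a marker of cycling cells, by 1.48 (SE 0.25). The 35 falls were 20 without cKO 0 h replicate 2 and 21 without cKO LPS replicate 2.

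Of 57 DNA repair and p53 genes 20 fell (35.1%) and 11 rose (19.3%), against 17.5% and 19.6% of all tested genes. The checkpoint kinase gene Chek2 differed by -1.99 (SE 0.16) and Sesn1, a p53 target, by -2.21 (SE 0.20). Gadd45b rose by 2.57 (SE 0.19), Ccng2 by 1.87 (SE 0.20), Fanca by 1.59 (SE 0.19), the kinase gene Atm by 1.39 (SE 0.20) and Mdm2, the ligase that degrades p53, by 1.34 (SE 0.12). Trp53 differed by -0.19 (adjusted p = 0.526). The 11 rises were 7 without cKO LPS replicate 1.

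Of 45 inflammasome and cell death genes 21 rose and 5 fell. Mefv, which encodes pyrin, rose by 2.78 (SE 0.14), the caspase 8 regulator gene Cflar by 2.60 (SE 0.14), the necroptosis effector gene Mlkl by 2.37 (SE 0.19) and Nlrp3 by 2.32 (SE 0.18). Gsdmd, the pore-forming effector of pyroptosis, rose by 1.51 (SE 0.14) and Casp1 by 1.07 (SE 0.16). Bmf, a promoter of apoptosis, differed by -1.57 (SE 0.28), Casp6 by -1.38 (SE 0.16) and Nlrp1b by -1.05 (SE 0.17). The 5 falls were 3 with a minimum mean rlog of 5.

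Of 49 matrix, protease and adhesion genes 24 rose and 4 fell. Serpinb2, an inhibitor of plasminogen activators, went from 5.99 and 5.76 to 11.42 and 10.86, a rise of 5.27 (SE 0.72). The integrin gene Itga5 rose by 2.78 (SE 0.16), the adhesion receptor genes Vcam1 and Icam1 by 2.76 (SE 0.47) and 2.55 (SE 0.20), and the collagenase gene Mmp13 by 2.72 (SE 0.48). Timp2, an inhibitor of matrix proteases, differed by -1.32 (SE 0.19). The falls were 1 or 2 when any 1 cKO library was left out, 7 without either WT LPS library and 8 with quantile normalization. Antimicrobial, acute-phase and serpin genes rose in 13 of 31 and fell in 2, of which 0 or 1 was left when any 1 cKO library was left out. Ptx3, a soluble pattern recognition protein, rose by 3.61 (SE 0.41), and Lcn2, which binds bacterial siderophores, differed by 0.96 (adjusted p = 0.0551). Lcn2 passed without either WT LPS library (adjusted p = 0.00101 and 0.000984 by limma).

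Of 51 genes of histone lysine methylation, PTIP partners included, 6 rose (11.8%) and 2 fell (3.92%), below the 19.6% and 17.5% of all tested genes. Kdm4a, a demethylase, went from 5.46 and 5.77 to 7.56 and 8.14, a rise of 2.23 (SE 0.21). Setdb2, an interferon-induced methyltransferase, rose by 1.63 (SE 0.19) and Ehmt2, which methylates lysine 9 of histone H3, by 0.74 (SE 0.13). Smyd3 differed by -1.67 (SE 0.23). Of the partners of PTIP, Kmt2d differed by 0.14 (adjusted p = 0.614) and Kdm6a by 0.17 (adjusted p = 0.49). Dpy30, a core subunit of these methyltransferase complexes, fell by 0.90 on the log2 scale (SE 0.21, adjusted p = 0.00965) and did not pass without cKO 0 h replicate 1 or cKO LPS replicate 2 (adjusted p = 0.0514 and 0.0789 by limma). The 6 rises were 3 without cKO LPS replicate 2, which also left 1 of the 2 falls, and 4 fell with quantile normalization. Of 38 histone acetylation genes 5 rose (13.2%) and 7 fell (18.4%). The acetyl-lysine reader gene Brd2 rose by 1.38 (SE 0.14), Hdac1 by 1.34 (SE 0.19) and Brd9 by 0.92 (SE 0.14). Sirt3, a mitochondrial deacetylase, differed by -1.98 (SE 0.15), Hdac5 by -1.14 (SE 0.24) and Kat6b by -1.06 (SE 0.22). Crebbp and Ep300, the acetyltransferases of active enhancers, differed by 0.15 (adjusted p = 0.517) and -0.14 (adjusted p = 0.524). The 7 falls were 4 without cKO LPS replicate 2.

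Whether the response of cKO macrophages differed from that of WT was tested directly, gene by gene. Of 11543 genes 0 passed in limma (0%), with a smallest adjusted p of 0.643, and 751 (6.51%) had an unadjusted p under 0.05. The cKO response was the higher one in 302 of these (2.62%) and the lower one in 449 (3.89%). In no alternative run did any gene pass, and the smallest adjusted p was 0.0997, without WT LPS replicate 2. WT macrophages had 2598 rises (22.5%) and 2273 falls (19.7%), counts that do not themselves test a difference.

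The genes with the smallest p-values for a smaller response in cKO, none of them called, were Kynu, Lztfl1, Hat1, Phip and Hmgn3. Kynu, an enzyme of tryptophan breakdown, was at 8.46 and 8.48 and then at 10.24 and 10.08 in cKO, and at 8.08 and 8.09 and then at 10.91 and 10.89 in WT. Its response was 1.69 in cKO and 2.82 in WT, a difference of -1.13 (SE 0.16, unadjusted p = 8.83e-05 in limma). Hat1, a histone acetyltransferase that acts on newly made histone H4, rose by 1.25 in cKO and 2.42 in WT, a difference of -1.16 (SE 0.19). The differences were -1.46 (SE 0.22) for Lztfl1, -0.99 (SE 0.17) for Phip and -1.17 (SE 0.21) for the nucleosome-binding protein gene Hmgn3. In all 5 the LPS samples of cKO lay below those of WT.

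The 5 on the other side, also not called, were Pacc1, Mid1ip1, Nfic, Lrrc14 and Mavs. Mid1ip1, a regulator of lipogenesis, was at 9.90 and 9.68 and then at 9.94 and 9.71 in cKO, and at 9.85 and 9.78 and then at 8.83 and 8.28 in WT, a difference of responses of 1.29 (SE 0.26). The antiviral adaptor gene Mavs responded by -0.44 in cKO, which did not pass when any 1 cKO library was left out, and by -1.29 in WT, a difference of 0.86 (SE 0.18). The differences were 0.96 (SE 0.20) for the transcription factor gene Nfic and 0.89 (SE 0.17) for the acid-activated chloride channel gene Pacc1. Lrrc14 rose by 0.61 in cKO (SE 0.13, adjusted p = 0.00752, and 0.0554 without cKO LPS replicate 1) and responded by -0.30 in WT (adjusted p = 0.101), a difference of 0.91 (SE 0.19).

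The cKO responses of some of the genes named above are given beside those of WT. The response of Il27 was 6.72 in cKO and 6.71 in WT, that of Cxcl10 6.79 and 6.45, and that of Ifi205 6.03 and 5.99. Nos2 responded by 5.64 in cKO and 6.5 in WT (difference -0.87, SE 0.77, adjusted p = 0.863). Il6 responded by 4.80 and 5.76. Tcp11l2 responded by -3.69 in cKO and -2.43 in WT, a difference of -1.26 (SE 0.35, adjusted p = 0.682). Mmp13 responded by 2.72 in cKO and 4.63 in WT, and Vcam1 by 2.76 and 4.49. The unadjusted p of the difference was 0.021 for Mmp13 and 0.029 for Vcam1 in limma. Neither passed after adjustment, and 6.51% of all tested genes had an unadjusted p under 0.05.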

How the data were processed

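RNA was sequenced from 8 cultures of mouse bone marrow-derived macrophages, 2 in each of 4 groups (WT and cKO, 0 h and 6 h of LPS). The values analysed are rlog, a log2 scale, as deposited by the authors. Tools listed in the submitters' processing notes are HISAT2 2.1.0, DESeq2, CASAVA and featureCounts, with the build GRCm38. The annotation, the strand setting and the handling of reads that map to several places were not given in the sources used here. Adjusted p-values of the authors' own comparisons were deposited in the same tables, per the file headers, and are used only where named.

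Only genes whose mean rlog reached 3 were tested (11543 of 55226; 26727 were at 0 in every sample). A model with 4 group means was fitted to the 8 samples with limma 3.58.1 in R 4.3.3, with a variance trend, giving 4 residual and 4.4 prior degrees of freedom. Benjamini-Hochberg adjustment ran over all genes tested, with a threshold of 0.05. The difference of responses was the interaction contrast. The fit was tested on simulated data.

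The members and the 41 gene lists were chosen with earlier results of these data known. Genes named are Paxip1, the 12 largest rises and falls whose groups do not overlap, and, per list, its anchors, 4 largest rises and 3 largest falls. The 5 smallest p-values in each direction name the differences of responses. Other genes, such as the cell type markers and single list members whose count was small, were named after their values were seen. Gene positions are from GENCODE M21, and promoters from RefSeq on GRCm38.p6. The kappa-B motif was searched on both strands, as were the others. Depth is unknown, so no counting error can be given. Some genes that the naming rule picked are not reported here.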

Additional observations from a re-analysis of the deposited data

Results flagged for a closer look

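In 4 genes named here both cKO samples after LPS moved one way from the 0 h samples and both WT samples moved the other way. Opposite movement of the samples is what singled these genes out, and the test of the difference itself passed in none of them (limma). How many of all tested genes moved in this way was not counted. In cKO alone the pairs did not overlap in 72.5% of the tested genes. All cKO values of Paxip1 were below the filter value of 3. The difference of responses, cKO minus WT, was 0.907 for Lrrc14 (adjusted p = 0.643), 0.625 for Paxip1 (adjusted p = 0.751), -0.387 for the acetyltransferase gene Ep300 (adjusted p = 0.784) and -0.666 for the long noncoding RNA Malat1 (adjusted p = 0.751).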

How the results depend on the processing

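The 4275 genes called in cKO ranged from 2684 to 4468 when 1 library was left out, with 2845 without cKO LPS replicate 1 and 2684 without cKO LPS replicate 2; a group left with 1 sample was assumed to vary like the others. No gene passed for the difference of responses in any alternative, and the number at an unadjusted p under 0.05 ran from 456 to 996. With quantile normalization 15 named genes changed sign. In 10 neither fit made a call, and among them Paxip1 went to -0.24, Cd74 to -0.20, Junb to -0.28, Mid1ip1 to -0.26 and mt-Nd1 to -0.51. The 5 with a call in either fit were Atp6v1f to -0.0692, Cox4i1 to -0.4593, Csf1r to -0.5125, Rplp0 to -0.4238 and Uqcrfs1 to -0.0045. The replicate block over the 8 samples gave 4555 calls in cKO and the block within genotype 4724, and both gave 0 for the difference. The block within genotype called Spi1 (1.10, adjusted p = 0.00753 by limma), and either block called 1 rise among the 16 mitochondrially encoded transcripts. Deviations of same-numbered samples correlated at 0.31 between the cKO groups and 0.22 between the WT groups, and at -0.04 to 0.20 between groups of different genotype. The labels do not say what a number marks, and with 2 samples a group these values do not settle whether the numbers pair the samples, so the fit without the block was kept. Depth is unknown and sets no stated limit.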

Other observations

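Shares in this section stand beside 19.6% rises and 17.5% falls over all tested genes. Of 39 tested signalling G protein-coupled receptor genes 11 rose (28.2%) and 8 fell (20.5%). The adenosine receptor gene Adora2a went from 8.45 and 8.30 at 0 h to 11.81 and 12.03 after LPS and rose by 3.55 (SE 0.21). Gpr84, a receptor for medium-chain fatty acids, rose by 3.55 (SE 0.29) and Hcar2, the niacin receptor, by 1.92 (SE 0.15). Gpr160 differed by -2.85 (SE 0.25) and the lysophosphatidic acid receptor gene Lpar6 by -2.63 (SE 0.28). The 8 falls were 5 without cKO 0 h replicate 1 or cKO LPS replicate 1.

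Of 45 scavenger, lectin and Fc receptor genes 14 rose (31.1%) and 12 fell (26.7%). Clec4e, which encodes the mycobacterial glycolipid receptor Mincle, rose by 3.59 (SE 0.19). The Fc receptor genes Fcgr4 and Fcgr1 rose by 1.71 (SE 0.25) and 1.69 (SE 0.31), and the inhibitory receptor gene Cd300a differed by -2.60 (SE 0.26). The 14 rises were 6 without cKO LPS replicate 1 and 8 without cKO LPS replicate 2 or with quantile normalization, and the 12 falls were 6 without cKO 0 h replicate 1 or cKO LPS replicate 2 and 7 without cKO LPS replicate 1.

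Of 186 solute carrier genes 36 rose (19.4%) and 40 fell (21.5%), near the shares over all tested genes. The glutamate transporter gene Slc1a2 rose by 3.93 (SE 0.32), the nucleoside transporter gene Slc28a2 by 3.32 (SE 0.32) and the mitochondrial glutamate carrier gene Slc25a22 by 3.26 (SE 0.12). The fatty acid transporter gene Slc27a6 differed by -1.96 (SE 0.29). The 40 falls were 23 to 26 when a cKO LPS library or cKO 0 h replicate 1 was left out. Antioxidant and iron genes rose in 13 of 49 (26.5%) and fell in 9 (18.4%). Among them were the cystine transporter gene Slc7a11 at 2.62 (SE 0.16), Sod2 at 1.83 (SE 0.15), Gpx1 at -1.17 (SE 0.18) and the catalase gene Cat at -0.97 (SE 0.14). The 13 rises were 8 with quantile normalization, and the 9 falls were 5 without cKO LPS replicate 2.

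Of 18 circadian clock genes 6 fell (33.3%) and 2 rose (11.1%). Per3 went from 7.95 and 8.39 to 5.86 and 5.63, a difference of -2.43 (SE 0.26), and Cry1 rose by 1.03 (SE 0.19). The 6 falls were 2 without cKO 0 h replicate 2 and 1 without cKO LPS replicate 1, and 1 of the 2 rises was left when any 1 cKO library was left out. Of 249 numbered zinc finger genes 31 fell (12.4%) and 12 rose (4.82%), led by Zfp652 (-2.09, SE 0.18) and Zfp811 (3.48, SE 0.34). The falls were 14 to 19 when any 1 cKO library was left out, and the rises were 7 without cKO LPS replicate 2. The host gene of an inflammatory microRNA, Mir155hg, went from 5.97 and 6.07 to 9.68 and 9.90 and rose by 3.77 (SE 0.48).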
